A study of Mus musculus with 9 samples.

Results

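Integrins are cell surface receptors made of 1 alpha and 1 beta chain, and this account follows 10 of their genes across sorted tissue macrophages. The genes are Itgam, Itgax, Itgal, Itga4, Itga6, Itga9, Itgav, Itgb1, Itgb2 and Itgb5, taken by symbol, and all 10 were found among the 15434 genes of the deposited table and passed the filter on low values, with 11766 genes passing in all. RNA was sequenced from sorted macrophages of C57BL/6J mice in 9 libraries, 3 each from testis, from epididymis and from brain. No culture or treatment is described, no altered gene is named, and the age of the mice is not given in the sources used here. Library titles call the brain cells microglia, and each organ carries 1 mouse number of its own, so organ and mouse number cannot be told apart. Nothing in the labels says that the 3 libraries of an organ came from separate animals, so the spread that p-values rest on, that between libraries, may be technical. The labels also describe pooling of testis and epididymis suspensions in terms that do not say whether the organs were kept apart.

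The sort kept live cells with CD45, CD11b and F4/80 on their surface and left out cells with Ly6C or CD11c. Among the genes followed here, Itgam encodes CD11b, on which cells were kept, and Itgax encodes CD11c, on which cells were removed. The gate was set on protein, and the values below are transcript levels.

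In leukocytes the beta 2 chain, encoded by Itgb2, pairs with alpha chains that include those of Itgam, Itgax and Itgal. These receptors bind ICAM proteins, fibrinogen and complement fragments and serve adhesion and phagocytosis. The beta 1 chain, encoded by Itgb1, pairs with the alpha chains of Itga4, Itga6, Itga9 and Itgav and binds matrix proteins such as fibronectin and laminin, or VCAM1 in the case of the alpha 4 chain. The beta 5 chain, encoded by Itgb5, pairs with the alpha v chain and binds vitronectin. A chain reaches the cell surface in numbers only with its partner.

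The alpha chain genes of the beta 2 family that are followed here lie on chromosome 7 of GRCm38, the assembly that mm10 denotes. Itgam spans 128062640 to 128118491 and Itgax 128129547 to 128150657, 11.1 kb apart, and Itgal lies 727.5 kb before Itgam, from 127296260 to 127335138. Itga4 (79255426 to 79333123), Itga6 (71745616 to 71858416) and Itgav (83724397 to 83806916) lie on chromosome 2, Itga9 on chromosome 9 (118606690 to 118901003), Itgb1 on chromosome 8 (128685654 to 128733200), Itgb2 on chromosome 10 (77530252 to 77565708) and Itgb5 on chromosome 16 (33829665 to 33949338). All 10 are protein-coding genes on the plus strand in GENCODE M21. In that annotation 68.7% of the exonic bases of Itgam are shared with Gm49368, a gene model on the same strand, 8.04% of those of Itga4 with Cerkl on the opposite strand, and 5.90% of those of Itgav with an opposite-strand transcript. Strand is not marked by the library kit, and the counting rule is not given in the sources used here, so reads in shared bases are uncertain.

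Bases upstream of 3 of the genes are shown because Itgam and Itgax are neighbours with unlike patterns over the organs and Itgb1 ran opposite to Itgam. Each sequence is the 250 bases before the RefSeq start on GRCm38.p6, plus strand, at chr7:128062390-128062639 for Itgam, chr7:128129300-128129549 for Itgax and chr8:128685404-128685653 for Itgb1. Capitals mark GAGGAA, a form of the site bound by the macrophage factor PU.1, or its reverse complement TTCCTC.
Itgam: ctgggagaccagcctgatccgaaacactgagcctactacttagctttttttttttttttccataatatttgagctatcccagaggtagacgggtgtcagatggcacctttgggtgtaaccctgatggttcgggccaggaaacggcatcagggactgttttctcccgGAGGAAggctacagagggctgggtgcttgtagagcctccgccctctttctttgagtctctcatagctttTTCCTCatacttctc
Itgax: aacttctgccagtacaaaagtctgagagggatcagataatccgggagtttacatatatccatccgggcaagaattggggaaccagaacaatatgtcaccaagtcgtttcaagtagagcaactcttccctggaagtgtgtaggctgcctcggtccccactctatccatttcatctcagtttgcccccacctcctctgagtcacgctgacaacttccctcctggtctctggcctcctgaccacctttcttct
Itgb1: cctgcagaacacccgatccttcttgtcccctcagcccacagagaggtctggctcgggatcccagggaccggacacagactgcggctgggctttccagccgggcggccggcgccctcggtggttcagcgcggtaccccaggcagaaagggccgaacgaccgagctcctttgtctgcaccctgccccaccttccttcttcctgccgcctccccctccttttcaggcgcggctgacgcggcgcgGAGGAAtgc
The motif was present 2 times before Itgam, with first bases 84 and 15 bases before the start, and 1 time before Itgb1, at 9 bases. It was not in the window of Itgax, though the shorter GGAA was. Other forms of the site were not searched, so its absence does not show that the window lacks PU.1 sites. RefSeq windows were matched for 7 of the 10 genes, 3 of which held the motif (Itgam, Itgav and Itgb1), against 23.3% of all 32851 windows in the table. The window matched to Itga9, which held no motif, lies 105.0 kb inside the gene as GENCODE places it, and the other 6 lie within 1 kb of the gene start. A match describes letters and shows no binding.

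Depth ran from 2727092 to 4458688 gene-assigned reads per library, and 1 read was worth between 0.808 and 1.11 normalised reads. Values below are normalised read counts, meaning reads divided by the authors' factor per library, given as mean ± SD of 3 libraries. On the third principal component of log2 values (14.2% of the variance), testis replicate 1 (99.13) and epididymis replicate 3 (97.16) lay far from the remaining libraries of the same organ (-94.62 to -45.67). Macrophage markers were present in all organs, with Csf1r, Adgre1, Cd68, Mertk, Fcgr1, C1qa, C1qb and Cx3cr1 together at 13535 to 14727 in testis, 26217 to 29518 in epididymis and 43540 to 49301 in microglia. Of the microglia markers, the 5 found in the table summed to 453 to 785 in testis, 2897 to 3967 in epididymis and 12139 to 13520 in microglia. In such mixtures, fewer cells of a type and less RNA per cell cannot be told apart.

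By limma's moderated F test, 6 of the 10 integrin genes differed among the 3 organs at a Benjamini-Hochberg adjusted p below 0.05 over all tested genes, against 11.4% of all tested genes. These were Itgam (adjusted p = 7.1e-06), Itgb5 (0.00070), Itga6 (0.0024), Itgax (0.0056), Itgb1 (0.0061) and Itga4 (0.012). The Itga4 call was lost without microglia replicate 1 (limma adjusted p = 0.059), and the Itgax call by DESeq2 (adjusted p = 0.061). Itgax would not have passed the filter without its epididymis libraries, so its calls, though counted here, support nothing further. Itgal (adjusted p = 0.093), Itgav (0.36), Itga9 (0.44) and Itgb2 (0.85) did not pass. Between testis and epididymis 5 of the 10 were called, 1 higher and 4 lower in testis, against 4.39% of all tested genes (2.49% higher and 1.9% lower). Between testis and microglia 5 were called, 2 higher and 3 lower in testis, against 11.7% (6.82% higher and 4.83% lower). Between epididymis and microglia 3 were called, 2 higher and 1 lower in epididymis, against 4.79% (2.99% higher and 1.8% lower). Libraries of the 2 organs did not overlap for 5 of the 10 in testis over epididymis, 1 higher and 4 lower, against 19.8% of all tested genes (11% and 8.8%). They did not overlap for 7 in testis over microglia, 3 higher and 4 lower, against 30.8% (15.9% and 14.9%), and for 6 in epididymis over microglia, 4 higher and 2 lower, against 22% (10.5% and 11.5%). Without the trend of variance with level, 4 of the 13 calls remained, those of Itgax between epididymis and either other organ and those of Itgam and Itgb5 in testis over microglia. No call of Itga4, Itga6 or Itgb1 remained there. Their lowest limma adjusted p were 0.10 (Itga4, epididymis over microglia), 0.079 (Itga6, testis over microglia) and 0.078 (Itgb1, testis over microglia). The 3 comparisons share libraries and are not independent of each other. The 10 genes were chosen with earlier results of these data known, so their counts beside those of all tested genes are a description only. In testis over epididymis the calls over all genes were 293 higher and 223 lower, but 227 and 307 with libraries scaled to the same total and 223 and 256 after quantile normalization. In testis over microglia they were 803 higher and 568 lower, and 654 and 772 with the same total. Those scalings moved the median log2 fold of all genes in testis over epididymis to -0.05 (same total) and 4.7e-05 (quantile), against 0.10 with the authors' factors, and in testis over microglia to -0.29 (same total), against -0.07.

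**Figure D1:**
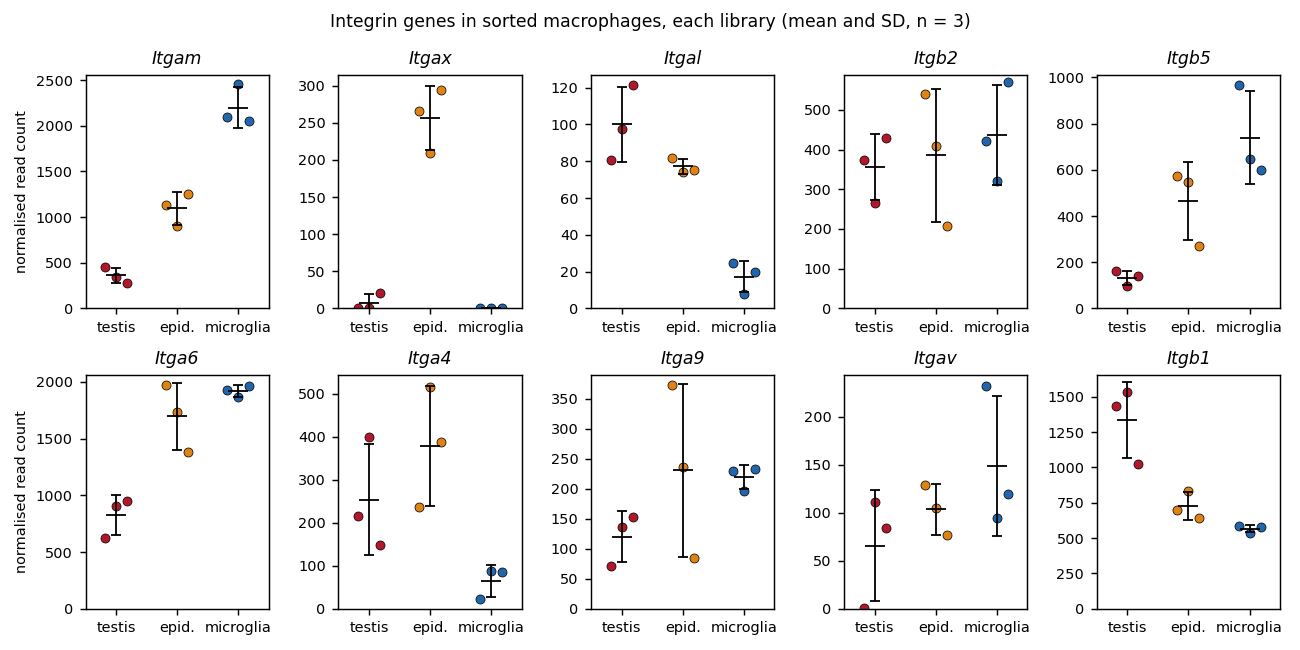
Normalised read counts (vertical axes, linear from 0, error bars cut at 0) of the 10 integrin genes in each library of testis, epididymis and microglia, with points for libraries and bars for the mean and SD of 3. Itgam and Itgb5 are lowest in testis and highest in microglia, Itgb1 has the reverse order, and Itgax is high in epididymis.

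Itgam, the alpha chain of CD11b, stood in 3 separate steps over the organs. It was counted at 451, 348 and 283 in the testis libraries, at 1134, 901 and 1247 in the epididymis libraries and at 2094, 2451 and 2047 in the microglia libraries. No library of 1 organ overlapped those of another, although every cell had been gated on CD11b protein. The mean in testis was 361 ± 84.9, against 1094 ± 176 in epididymis, 3.03 times apart (limma log2 fold -1.61, SE 0.23, adjusted p = 0.00097), and 2197 ± 221 in microglia, 6.09 times apart (limma log2 fold -2.62, SE 0.23, adjusted p = 2.0e-06). Epididymis lay 2.01 times below microglia (limma log2 fold -1.01, SE 0.23, adjusted p = 0.020). That last call was lost without epididymis replicate 1 (limma adjusted p = 0.055) or 2 (0.089), or microglia replicate 1 (0.068) or 2 (0.099). Without the variance trend in limma the adjusted p for Itgam was 0.077 for testis over epididymis and 0.24 for epididymis over microglia. Of the macrophage markers, Csf1r, Cx3cr1 and Mertk had the same order of organ means, and their levels carry the sums given above. Adgre1, Cd68, Fcgr1, C1qa and C1qb had their highest mean in epididymis. The median log2 fold of the 8 was -1.04 in testis over epididymis, -0.62 in testis over microglia and 0.25 in epididymis over microglia. The 6 neutrophil markers, a cell type that also carries CD11b, summed to 153 to 256 in testis, 190 to 405 in epididymis and 446 to 751 in microglia. Of these, S100a8, S100a9, Csf3r and Retnlg had their highest means in microglia (85.3, 104, 260 and 16.9), against 0, 0, 6.10 and 0 in testis. Ly6g had no read in any testis or microglia library. Cxcr2 made up most of the testis sum and ran the other way, with a mean of 203 in testis, 170.2 in epididymis and 93.7 in microglia. The part of either marker list in the Itgam result was not tested.

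Itgax, the alpha chain of CD11c, was found in epididymis libraries although CD11c+ cells had been gated out. In testis it stood at 0, 0 and 21.4, the last value resting on 25 reads. It stood at 265, 209 and 294 in the epididymis libraries, and no microglia library had a read. All epididymis libraries lay above all others, and the testis and microglia libraries overlapped. Testis averaged 7.12 ± 12.3 against 256 ± 43.3 in epididymis (limma log2 fold -6.50, SE 1.56, adjusted p = 0.027). That call was lost without testis replicate 1 (limma adjusted p = 0.091) or 2 (0.11), or epididymis replicate 1 (0.063), 2 (0.062) or 3 (0.068). It was also lost by edgeR (adjusted p = 0.077) and DESeq2 (adjusted p = 0.29) on whole reads and in a fit of these 6 libraries alone (limma adjusted p = 0.077). Against microglia, Itgax in epididymis was at least 88.0-fold higher, taking 3 reads per library as the floor (limma adjusted p = 0.0066), and floors cover counting error only. That call held with each library left out, with a limma adjusted p of up to 0.033. Itgax reached the filter value of 10 in 3 epididymis libraries and 1 testis library. Thus it was tested only because it was high in epididymis, and its calls support nothing further. Dendritic cells carry CD11c, and the 5 of their markers found in the table summed to 490 to 669 in testis, 151 to 190 in epididymis and 112 to 179 in microglia. Ccr7 and Kit were at 0 in all epididymis libraries. Zbtb46 had its highest mean in epididymis, with 18.5 ± 9.14 in testis, 38.3 ± 62.7 in epididymis and 8.05 ± 9.01 in microglia. Flt3 and Xcr1 had theirs in testis, with 67.4 ± 35.0 and 356 ± 65.8 in testis, 19.2 ± 18.2 and 116 ± 67.6 in epididymis, and 32.4 ± 21.8 and 102 ± 13.5 in microglia. Their part in the Itgax result was not tested.

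Itgal, the alpha chain of LFA-1, is used by lymphocytes as well as by macrophages. It stood at 80.8, 97.7 and 121 in testis, at 81.8, 74.1 and 75.5 in epididymis and at 24.6, 7.80 and 19.6 in microglia. Each testis and each epididymis library lay above every microglia library. The difference did not pass limma's test for testis over microglia (log2 fold 2.58, SE 0.83, adjusted p = 0.057) or for epididymis over microglia (log2 fold 2.23, SE 0.83, adjusted p = 0.17). The difference of testis from microglia passed after quantile normalization (limma adjusted p = 0.048), without the variance trend (0.017) and by DESeq2 on whole reads (adjusted p = 0.0086). Of the T and NK cell markers, the 7 found in the table summed to 565 to 884 in testis, 65.5 to 174 in epididymis and 72.9 to 154 in microglia. Lck was at 0 in all epididymis and microglia libraries, and Cd3e and Nkg7 were at 0 in microglia. Itgal averaged 77.1 ± 4.12 in epididymis and 17.3 ± 8.62 in microglia, and the part of T and NK cells in this was not tested.

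Itgb2, the beta chain shared by all 3, was not called in any comparison. It stood at 375, 267 and 430 in testis, at 539, 408 and 208 in epididymis and at 421, 320 and 571 in microglia. The libraries of the 3 organs overlapped throughout, with means of 357 ± 83.1 in testis, 385 ± 167 in epididymis and 437 ± 126 in microglia. The log2 fold was -0.03 (SE 0.37) for testis over epididymis, -0.28 (SE 0.37) for testis over microglia and -0.25 (SE 0.37) for epididymis over microglia. The lack of a call, here and below, does not show equal levels.

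Divided by exonic length, these values can be set beside each other. The alpha chains of Itgam, Itgax and Itgal together reached 79.3 to 102 normalised reads per kb in testis, 234 to 321 in epididymis and 410 to 489 in microglia. Itgb2 stood at 87.3 to 141 per kb in testis, 68.2 to 177 in epididymis and 105 to 187 in microglia. The ratio of Itgb2 to the sum of these 3 alpha chains was 1.04 to 1.78 in testis libraries, 0.212 to 0.602 in epididymis libraries and 0.214 to 0.456 in microglia libraries. Every testis library lay above 1, and every library of the other organs below. Itgam made up 71.1% to 88.0% of the summed alpha chains in testis, 76.6% to 77.3% in epididymis and 99.1% to 99.8% in microglia. The rest was mainly Itgal in testis (12.04% to 23.3%) and mainly Itgax in epididymis (18.6% to 19.1%). Lengths are the union of annotated exons, which can exceed the transcript present in these cells. These shares and ratios cover only the 3 alpha chains named, not every partner of the beta 2 chain, and were not tested.

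**Figure D2:**
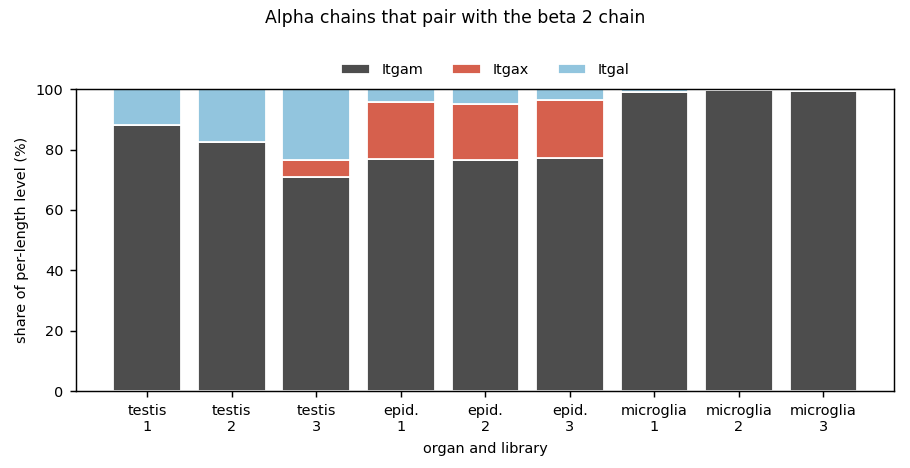
Share in percent of the summed per-length level that came from Itgam, Itgax and Itgal (vertical axis) in each of the 9 libraries (horizontal axis). Itgax holds 18.6% to 19.1% in the 3 epididymis libraries, 5.61% in testis replicate 3 and 0% in the others, and Itgam holds at least 99.1% in microglia.

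Itgb1, the beta 1 chain that most matrix receptors share, ran opposite to Itgam. It stood at 1437, 1533 and 1027 in testis, at 700, 833 and 639 in epididymis and at 584, 538 and 579 in microglia. The organs did not overlap. Testis averaged 1332 ± 269 against 724 ± 99.0 in epididymis, 1.84 times apart (limma log2 fold 0.87, SE 0.23, adjusted p = 0.047), and 567 ± 24.9 in microglia, 2.35 times apart (limma log2 fold 1.21, SE 0.23, adjusted p = 0.0025). The call for testis over epididymis held in only 1 of the 9 fits that left out a library, the one without testis replicate 3. Among the other 8 its limma adjusted p ran from 0.059 (without microglia replicate 2 or 3) through 0.068 (epididymis 2), 0.072 (microglia 1), 0.099 (epididymis 1), 0.13 (testis 1 or epididymis 3) to 0.16 (testis 2). It was also lost with the same total per library (0.11) and after quantile normalization (0.091), without the filter on low values (0.070), and by edgeR (adjusted p = 0.065). The call against microglia held in all 9, with a limma adjusted p of up to 0.019. Itgb1 in epididymis over microglia was not called (limma log2 fold 0.34, SE 0.23, adjusted p = 0.52). Other cells of these organs use beta 1 integrins too. The 6 fibroblast and mural cell markers summed to 246 to 309 in testis, 48.2 to 201 in epididymis and 16.9 to 66.9 in microglia, with Pdgfrb at 0 in testis and epididymis. In testis over microglia the 5 tested had log2 folds of 6.76 (Acta2), 5.25 (Dcn), 4.24 (Col1a2), 1.94 (Pdgfra) and 0.25 (Col1a1), with SEs of 1.26 to 1.84. All 5 were also above 0 in testis over epididymis. The 5 Leydig cell markers in the table summed to 1225 to 3150 in testis, 29.1 to 201 in epididymis and 75.8 to 105 in microglia. Their part in the result was not tested.

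Itga6, the alpha 6 chain of laminin receptors, was lower in testis. It stood at 624, 906 and 947 in testis, at 1970, 1737 and 1381 in epididymis and at 1926, 1866 and 1963 in microglia. Testis libraries lay below all others, and epididymis and microglia overlapped. Testis averaged 826 ± 176 against 1696 ± 297 in epididymis (limma log2 fold -1.05, SE 0.22, adjusted p = 0.013) and 1919 ± 49.1 in microglia (limma log2 fold -1.24, SE 0.22, adjusted p = 0.0013). The call against epididymis was lost without testis replicate 1 (limma adjusted p = 0.052) or epididymis replicate 1 (0.058) or 2 (0.057), while the call against microglia held in all 9 leave-outs. Endothelium also carries the alpha 6 chain, and its 3 markers in the table summed to 163 to 263 in testis, 121 to 231 in epididymis and 291 to 465 in microglia. Epithelium carries it too, and its 6 markers in the table summed to 19.7 to 88.0 in testis, 212 to 368 in epididymis and 0 to 23.4 in microglia, with Defb20 at 217 in epididymis and 0 elsewhere. The 6 male germ cell markers summed to 645 to 1994 in testis, 467 to 710 in epididymis and 4.44 to 32.8 in microglia. The part of these cells in the Itga6 result was not tested. Per kb of exon, Itgb1 was 2.40 to 5.09 times Itga6 in testis libraries, 0.786 to 1.06 times in epididymis and 0.638 to 0.670 times in microglia. Itga6 held 64.0% to 73.6% of the per-length sum of Itga4, Itga6, Itga9 and Itgav in testis, 71.4% to 77.0% in epididymis and 80.1% to 83.6% in microglia.

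Itga4, the alpha 4 chain of VLA-4 that binds VCAM1, was higher in both reproductive organs than in microglia. It stood at 215, 398 and 148 in testis, at 235, 515 and 387 in epididymis and at 21.9, 86.9 and 86.2 in microglia. The testis and epididymis libraries overlapped each other and lay above all microglia libraries. Epididymis averaged 379 ± 140 against 65.0 ± 37.4 in microglia, 5.83 times apart (limma log2 fold 2.69, SE 0.57, adjusted p = 0.012). Testis averaged 254 ± 130, 3.90 times the microglia mean (limma log2 fold 2.07, SE 0.57, adjusted p = 0.029). The epididymis call was lost without epididymis replicate 2 (limma adjusted p = 0.069) or 3 (0.053), and the testis call without testis replicate 1 (0.068) or 2 (0.14) or microglia replicate 1 (0.13). T cells and monocytes also carry VLA-4. The T and NK cell sums are given above, and the 5 monocyte markers in the table summed to 1521 to 2091 in testis, 46.4 to 312 in epididymis and 101 to 230 in microglia. The part of either cell type in the Itga4 result was not tested.

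Itga9, an alpha chain for tenascin and other matrix ligands, and Itgav were not called. Itga9 stood at 71.4, 136 and 153 in testis, at 372, 235 and 84.1 in epididymis and at 229, 196 and 232 in microglia. The testis libraries lay below all microglia libraries, but the log2 fold of -0.93 (SE 0.53) did not pass limma's test (adjusted p = 0.32). Itgav, the alpha v chain, stood at 1.04, 111 and 84.6 in testis, at 129, 105 and 76.5 in epididymis and at 232, 94.8 and 120 in microglia. In testis replicate 1 the Itgav value was a single read, although that library held 3383929 reads. Without that library the log2 fold of Itgav was -0.06 for testis over epididymis and -0.51 for testis over microglia, against -1.92 (SE 1.17) and -2.37 (SE 1.17) with it.

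Itgb5, the beta 5 chain and partner of alpha v, had the same order of organs as Itgam. It stood at 160, 99.4 and 139 in testis, at 575, 547 and 271 in epididymis and at 969, 649 and 597 in microglia. No library of 1 organ overlapped those of another. Testis averaged 133 ± 31.0 against 464 ± 168 in epididymis, 3.49 times apart (limma log2 fold -1.74, SE 0.36, adjusted p = 0.011), and 738 ± 201 in microglia, 5.55 times apart (limma log2 fold -2.46, SE 0.36, adjusted p = 0.00026). Epididymis and microglia were not called (limma log2 fold -0.71, SE 0.36, adjusted p = 0.35). The call against epididymis was lost without testis replicate 2 (limma adjusted p = 0.056) or epididymis replicate 1 (0.057) or 2 (0.062), and the call against microglia held in all 9 leave-outs. Per kb of exon, the ratio of Itgb5 to Itgb1 was 0.0744 to 0.156 in testis, 0.486 to 0.943 in epididymis and 1.19 to 1.91 in microglia.

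**Figure D3:**
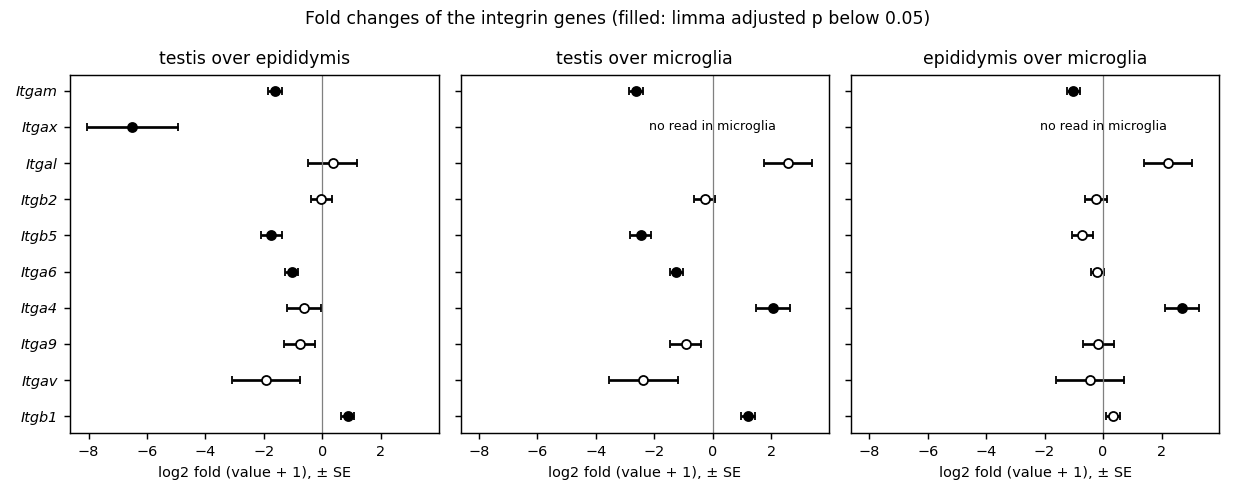
Log2 folds of the 10 integrin genes (horizontal axes, log2 of value + 1) in the 3 comparisons, with bars for the SE of limma and filled points for calls. Itgam, Itga6 and Itgb5 lie left of 0 and Itgb1 right of 0 in both comparisons of testis, and no fold is drawn for Itgax against microglia, where it had no read.

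Set in order per kb of exon, the mean levels gave Itgb1 as the highest of the 10 genes in testis (326), ahead of Itgb2 (117), Itga6 (91.5) and Itgam (71.8). In epididymis the order began with Itgam (218), Itga6 (188), Itgb1 (177), Itgb5 (131) and Itgb2 (126). In microglia it began with Itgam (437), Itga6 (213), Itgb5 (208), Itgb2 (143) and Itgb1 (139). Itgax ranked 10 in testis (1.48) and microglia (0) and 6 in epididymis (53.4).

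Integrin genes outside the 10 were mostly low. Their lists, like those of the helpers and ligands below, are counted over genes that passed the filter. Of 31 calls made for genes outside the 10 in these lists and the sort gate, 22 remained by edgeR and 9 without the variance trend, all 9 of them in testis over microglia or of Itgb7. Of 17 further subunit genes, 10 were in the table and 7 were tested. In testis against epididymis 1 rose and 6 did not pass, in testis against microglia 1 rose and 6 did not pass, and in epididymis against microglia 1 fell and 6 did not pass. The median log2 fold of the 7 was 0.99 in testis over epididymis, 1.45 in testis over microglia and -1.06 in epididymis over microglia, beside 0.10, -0.07 and -0.13 over all tested genes. Over the 10 genes followed here these medians were -0.91, -0.60 and -0.18. Itgb7, which pairs with the alpha 4 chain on lymphocytes and is a gut-homing receptor, stood at 62.1, 76.7 and 44.5 in testis, at 0 in all epididymis libraries and at 0, 8.92 and 0 in microglia. It was at least 20.9-fold higher in testis than in epididymis against the floor (limma adjusted p = 0.026) and was also called against microglia (limma adjusted p = 0.037). Itgb7 reached the filter value of 10 in the 3 testis libraries alone, so it was tested only because it was high there, and these calls support nothing further. Each Itgb7 call held in 4 of 9 leave-outs, with a limma adjusted p of up to 0.074 (without epididymis replicate 2) and 0.17 (without microglia replicate 1), and neither passed edgeR (adjusted p = 0.12 and 0.31). The T and NK cell sums were also highest in testis, and their part was not tested. Itgb3, the beta 3 chain of vitronectin receptors and platelets, averaged 24.3 ± 28.5 in epididymis against 234 ± 89.8 in microglia (limma log2 fold -4.20, SE 1.12, adjusted p = 0.043). That call held in 1 of 9 leave-outs, with a limma adjusted p of up to 0.20 without microglia replicate 3. The 4 platelet markers in the table, which include Itga2b, summed to 0 to 20.2 in testis, 0 to 15.1 in epididymis and 58.7 to 119 in microglia, and their part was not tested. Itgb8, a beta chain that pairs with alpha v and releases active TGF-beta, stood at 0, 0 and 35.1 in testis, at 10.9, 104 and 69.0 in epididymis and at 0 in all microglia libraries, and was not called.

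The genes that switch integrins on and tie them to actin differed one by one. Of 25 on that list, 22 were tested. In testis against epididymis 1 rose, 2 fell and 19 did not pass, in testis against microglia 4 rose, 3 fell and 15 did not pass, and in epididymis against microglia 3 rose and 19 did not pass. The medians of their log2 folds were 0.06, -0.12 and 0.03. Tln1, the talin that opens integrins in leukocytes, stood at 1184 ± 128 in testis, 1142 ± 87.3 in epididymis and 1105 ± 150 in microglia and was not called. Its relative Tln2 averaged 80.1 ± 25.4 in testis against 244 ± 10.4 in epididymis (limma adjusted p = 0.035, held in 2 of 9 leave-outs, up to 0.10 without testis replicate 2) and 319 ± 97.9 in microglia (limma adjusted p = 0.0051). Flna, the actin cross-linker that binds beta chain tails, averaged 795 ± 259 in testis against 171 ± 88.7 in epididymis (limma log2 fold 2.28, SE 0.41, adjusted p = 0.0048, or 0.069 without the variance trend) and 109 ± 19.0 in microglia (limma log2 fold 2.82, SE 0.41, adjusted p = 0.00027). Apbb1ip, which links Rap1 to talin, averaged 304 ± 184 in testis against 1128 ± 76.9 in microglia (limma log2 fold -2.12, SE 0.39, adjusted p = 0.0021, or 0.058 without the trend). Skap1, a lymphocyte adaptor of integrin activation, averaged 82.8 ± 9.96 in testis, against 1 read over the 3 microglia libraries (limma adjusted p = 0.011, called in all 9 leave-outs). Without its testis libraries Skap1 would not have passed the filter, so this call supports nothing further. Fyb, an adaptor of leukocyte integrin activation, fell to 1209 ± 266 in testis, against 3386 ± 288 in epididymis (limma adjusted p = 0.0010, and 0.10 if no trend is fitted), and epididymis also lay above the 1470.1 ± 331 of microglia (limma adjusted p = 0.0040, or 0.16 without it). Skap2, an adaptor of integrin signalling in macrophages, averaged 1408 ± 236 in epididymis against 691 ± 60.7 in microglia (limma adjusted p = 0.013, up to 0.067 without epididymis replicate 1). In testis Skap2 averaged 1207 ± 211, also called above microglia (limma adjusted p = 0.028, held in 4 of 9 leave-outs). Cyth1, an exchange factor for ARF proteins that binds the beta 2 chain, averaged 309 ± 67.0 in epididymis against 95.9 ± 41.5 in microglia (limma adjusted p = 0.034, held in 3 of 9 leave-outs, up to 0.13 without microglia replicate 2). Its testis mean of 268 ± 111 was also called above microglia (limma adjusted p = 0.042, held in 4 of 9 leave-outs).

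Of 18 signalling kinases and adaptors below integrins, 17 were tested. In testis against epididymis 2 fell and 15 did not pass, in testis against microglia 2 rose, 4 fell and 11 did not pass, and in epididymis against microglia 1 rose and 16 did not pass. The medians of their log2 folds were -0.27, 0.09 and 0.28. Lyn, a Src family kinase of myeloid cells, fell to 1384 ± 106 in testis, against 2558 ± 561 in epididymis (limma adjusted p = 0.021, held in 4 of 9 leave-outs, up to 0.091 without epididymis replicate 3). Testis also lay below the 2380 ± 157 of microglia for Lyn (limma adjusted p = 0.017, held in 7 of 9 leave-outs). Vav1, a signalling protein of blood cells, averaged 510 ± 40.2 in testis against 1140.4 ± 96.6 in epididymis (limma adjusted p = 0.0057, called in all 9 leave-outs but at 0.14 without the variance trend). In microglia Vav1 averaged 838 ± 89.5, also called above testis (limma adjusted p = 0.044, held in 1 of 9 leave-outs). Src itself averaged 7.36 ± 6.55 in testis against 85.6 ± 31.1 in microglia (limma adjusted p = 0.039, held in 3 of 9 leave-outs, up to 0.16 without microglia replicate 2). Vav3, a relative of Vav1, averaged 89.4 ± 40.0 in testis and had no read in microglia, at least 30.7-fold apart against the floor (limma adjusted p = 0.013, held in 6 of 9 leave-outs, up to 0.057 without microglia replicate 1). Without its testis libraries Vav3 would not have passed the filter, so this call supports nothing further. Pxn, which encodes the adhesion adaptor paxillin, averaged 185 ± 45.1 in testis against 47.7 ± 17.2 in microglia (limma adjusted p = 0.025, held in 5 of 9 leave-outs, up to 0.087 without testis replicate 1). Sirpa, an inhibitory receptor for CD47, averaged 607 ± 306 in testis against 1550 ± 208 in microglia (limma adjusted p = 0.014, held in 6 of 9 leave-outs, up to 0.078 without testis replicate 2). Fcer1g, an adaptor chain that signals for integrins and Fc receptors, averaged 1014 ± 166 in epididymis against 396 ± 109 in microglia (limma adjusted p = 0.0083, or 0.14 without the trend).

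**Figure D4:**
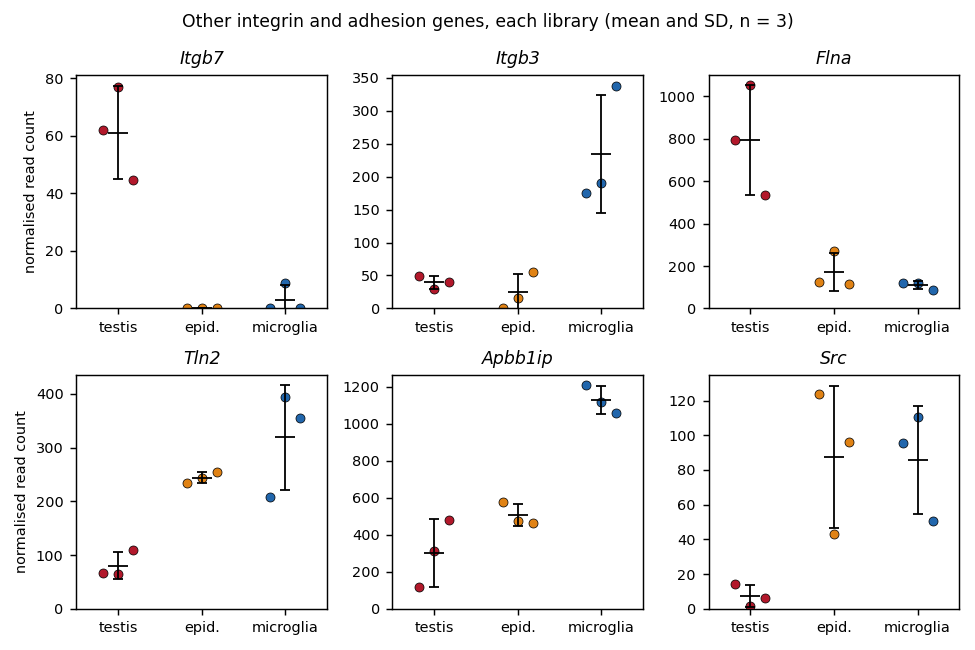
Normalised read counts (vertical axes, linear from 0, error bars cut at 0) of 6 further integrin and adhesion genes in each library of testis, epididymis and microglia, with the mean and SD of 3. Itgb7 and Flna are highest in testis, Tln2 and Src lowest there, and Itgb3 and Apbb1ip highest in microglia.

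Of 25 integrin ligand genes, 14 were tested. In testis against epididymis 1 fell and 13 did not pass, in testis against microglia 2 fell and 12 did not pass, and in epididymis against microglia 0 of 14 passed limma's test, with 4 at an unadjusted p below 0.05, 0 called by edgeR and 2 by DESeq2. The medians of their log2 folds were -0.02, -0.65 and 0.02. F11r, which encodes the junction protein JAM-A that LFA-1 binds, averaged 2580 ± 406 in testis against 6154 ± 73.4 in epididymis (limma log2 fold -1.27, SE 0.18, adjusted p = 0.00077, or 0.12 without the variance trend) and 7228 ± 957 in microglia (limma log2 fold -1.49, SE 0.18, adjusted p = 3.5e-05). Icam1, a ligand of LFA-1 and of the CD11b receptor, averaged 232 ± 137 in testis against 531 ± 78.0 in microglia (limma adjusted p = 0.048, held in 1 of 9 leave-outs, up to 0.16 without microglia replicate 1). Vcam1, the ligand of the alpha 4 chain, stood at 342 ± 213 in testis, 256 ± 37.5 in epididymis and 84.0 ± 57.5 in microglia and was not called.

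The other genes behind the sort gate had other orders of organs than Itgam. Ptprc, which encodes CD45, averaged 2805 ± 478 in testis and 2944 ± 512 in epididymis, against 1622 ± 247 in microglia (limma adjusted p = 0.021 and 0.025, each held in 5 of 9 leave-outs, up to 0.089 without testis replicate 2 and 0.11 without epididymis replicate 3). Neither Ptprc call remained without the variance trend (limma adjusted p = 0.25 and 0.32), and the one for epididymis was lost by edgeR (adjusted p = 0.0503). Adgre1, which encodes F4/80, averaged 454 ± 199 in epididymis against 71.7 ± 25.5 in microglia (limma log2 fold 2.63, SE 0.49, adjusted p = 0.0050, or 0.051 without the variance trend), with 191 ± 78.2 in testis. Ly6c2, a gene of the excluded Ly6C protein, stood at 81.6 ± 19.3 in testis, 11.1 ± 18.4 in epididymis and 20.4 ± 22.9 in microglia and was not called. Ly6c1, the other gene of that protein, had reads in 1 testis library alone (40.4) and was not tested. The mean of Itgam was highest in microglia, where the means of Ptprc and Adgre1 were lowest.

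For each integrin gene the 3 most alike genes were sought by Pearson's r of log2 values over the 9 libraries, given as a description. Libraries fall into 3 organs, so for genes that differed among organs r largely follows the organ means. For genes that did not pass the F test, such as Itgb2 and Itgav, r can follow single libraries instead. Itgam was most like Tmem119 (r = 0.986), a microglia marker at 234 in testis, 1423 in epididymis and 3184 in microglia, then Tmem173 and Pald1 (r = 0.986 and 0.985). Itgax was most like Slit1 (0.992), Npdc1 (0.989) and the interferon-induced chemokine gene Cxcl10 (0.960), which stood at 277 in testis, 1023 in epididymis and 138 in microglia. Slit1 averaged 4.27 in testis, 38.6 in epididymis and 0 in microglia, and Npdc1 2.55, 56.2 and 0. Like Itgax, Slit1 and Npdc1 would not have passed the filter without epididymis libraries, so their likeness to Itgax supports nothing further. Itgal was most like H2-Eb1 (0.993) and Cd74 (0.992), both of the MHC class II pathway, and Smc4 (0.990). Itga6 was most like Lpcat2, Plxdc1 and the lysosomal protease gene Ctsd (0.982, 0.981 and 0.977). Itgb1 was most like Flna (0.976), Wdr89 (0.976) and Tpt1 (0.972). Itgb5 was most like Lactb, Zfp90 and the TGF-beta receptor gene Tgfbr1 (0.973, 0.973 and 0.971), the last at 1274 in testis, 2667 in epididymis and 4169 in microglia. Itga4 was most like Lgals3bp, Myh10 and Plin2 (0.966, 0.951 and 0.951). For Itgav they were Fancc, Fat3 and Bmf (0.994, 0.980 and 0.976), and for Itga9 Rnf145, Sp1 and Pum2 (0.952, 0.947 and 0.945). Itgav was a single read in testis replicate 1, and the part of that library in its r was not tested. Itgb2 had the lowest values of the 10, with Zfp37, Serinc1 and Sec13 (0.931, 0.904 and 0.899).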

How the data were processed

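RNA sequencing libraries were made from 10 ng of RNA of sorted cells after 40 minutes of tissue digestion, per the labels' protocols. The signal values in the deposited table are gene read numbers divided by library factors, made by the authors with CASAVA 1.8, Bowtie2 2.2.1, Partek 6.6, DESeq2 and the mm10 genome, per the submitters' processing notes, which give no role for each. All values (100% in every library) were whole multiples of the library's smallest value above 0 within 1e-06 reads, so whole reads were recovered for edgeR and DESeq2. By these, edgeR called 366, 1056 and 458 genes in testis over epididymis, testis over microglia and epididymis over microglia, and DESeq2 788, 1583 and 910.

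Values were analysed as log2(value + 1), and folds are differences between mean logs. For low genes these folds depend on the added 1 and can differ from the ratio of means. Itgax in testis over epididymis had a log2 fold of -6.50, with means 36.0 times apart. Genes that reached 10 in 3 or more libraries were tested with limma 3.58.1 (R 4.3.3), with 1 mean per organ, a variance trend and Benjamini-Hochberg adjustment over all 11766 genes, called below 0.05. The fit was tested on simulated data for testis over epididymis over 11766 genes, where it called 2.49% of genes changed 2-fold, 23.9% at 4-fold and 43.9% at 16-fold. Of unchanged genes it called 0.0231%. Counts were simulated from edgeR dispersions and gene means over all libraries, with few genes changed, so these shares need not hold for the real data. Further software was edgeR 4.0.16 and DESeq2 1.42.0. Members and gene lists were chosen with earlier results of these data known. The rule for named genes took all members, the sort gate genes, up to 4 called genes of each list and comparison with the largest folds (part of which is printed), and the 3 genes most like each member. Tln1, Itgb8 and Vcam1 were chosen after their values were seen, as were marker genes named singly. Replicate numbers follow the order of the sample list.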

Additional observations from a re-analysis of the deposited data

How the results depend on the processing

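No paired analysis was possible because the labels give libraries of different organs no shared replicate number. Of the 13 calls made for the 10 integrin genes over the 3 comparisons, all 13 kept their direction in every alternative run, and all 13 stayed called with a pseudocount of 0.5 or 5 and with TMM factors. Without the low-value filter, with the same total per library and after quantile normalization 12 stayed, with DESeq2 12, with edgeR 11, with only the 2 organs compared 7 and without the variance trend 4, the cause of the losses not being tested. With 1 library left out, between 7 and 13 stayed, and 6 stayed in all 9 fits.

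In testis over epididymis, 1 integrin gene was called without the variance trend, 1 with only the 2 organs compared, 3 by edgeR and 3 without testis replicate 1 and epididymis replicate 3 together (an alternative chosen after seeing the data), and 1 to 5 with 1 library left out. Of all genes, 192 were called there without the trend, 250 with only the 2 organs, 788 by DESeq2 and 198 without those libraries together, and 278 to 442 with 1 library left out. In testis over microglia, 3 integrin genes and 837 genes were called without the trend, and 4 to 5 and 827 to 1457 with 1 library left out. In epididymis over microglia, 1 and 306 were called without the trend, 910 genes by DESeq2, and 1 to 3 and 320 to 597 with 1 library left out. The F test called 737 genes without the trend and 859 to 1302 with 1 library left out.

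Uncalled folds near 0 changed sign. Itgb2 in testis over epididymis had a log2 fold of 0.17, 0.26 and 0.06 without testis replicate 2, epididymis replicate 1 and epididymis replicate 2. Over all fits without libraries it ran from -0.47 to 0.26. Itga9 in epididymis over microglia had 0.034 by edgeR and 0.075 by DESeq2, and ran from -0.63 to 0.44 in fits without libraries. Itgb2 there ran from -0.54 to 0.14. The positive ends of both were those without epididymis replicate 3. Itgax in testis, Itgav and Itgb7 rest on few reads, which limits their precision. Where 1 library is left out of an organ, the spread is pooled over organs.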
